A study of Mus musculus with 8 samples.

Results

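The 44 genes described here encode the carriers between the endoplasmic reticulum (ER) and the Golgi apparatus: the COPII and COPI coats, their GTPases, and the cargo receptors, tethers and Golgi matrix proteins that work with them. They were taken by name, as the rows of 8 deposited gene tables whose symbol is on the list. The list was drawn up with earlier results of these data known. All 44 genes had 1 row with values in each table, out of 15747 genes with values. The libraries came from Achilles tendon of wild-type C57BL/6J mice, 4 after an injury and 4 after a sham operation. For the injury, the lateral side of the tendon was cut with an ear punch of 1.5 mm, and the semicircular gap it left measured 0.75 mm. The tendon was taken off the soleus muscle before RNA was extracted. The time from operation to sampling, and the age and sex of the mice, are not given in the labels, and the labels do not say that the libraries came from separate animals. The p-values therefore measure only the spread between these libraries, which may be technical.

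COPII coats form on the ER and carry newly made proteins forward, while COPI coats return escaped ER proteins and recycle machinery from the Golgi. A COPII coat is built when the GTPase Sar1 recruits Sec23 and Sec24, which pick up cargo, and then Sec13 and Sec31, which form the outer cage. Procollagen is too long for an ordinary COPII vesicle and needs added factors such as the TANGO1 protein, which makes this pathway of particular interest in tendon fibroblasts, cells that secrete large amounts of collagen I.

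Values are the authors' normalised read counts, rounded to whole numbers, and summed to between 14568669 and 16263086 in the injury libraries and between 13596488 and 15545903 in the sham libraries. All 10 listed marker genes of tendon fibroblasts (7 called higher, 3 not called; Col1a1 and Col1a2 among them) were measured, with no value of 0, and held 16.4 to 18.4% of all counts in injury libraries and 4.90 to 9.51% in sham libraries. Skeletal muscle markers, all 37 of them measured and all called lower after injury, held 0.448, 0.8286, 2.08 and 2.76% in injury replicates 1 to 4 and 9.39, 9.20, 8.12 and 13.7% in sham replicates 1 to 4. Fat cell markers (9 of 9 called lower) held 0.0275 to 0.0529% in injury and 0.134 to 0.295% in sham libraries, endothelial markers (7 of 9 called lower) 0.0580 to 0.0840% in injury and 0.0942 to 0.126% in sham libraries, and macrophage markers (8 of 10 called higher, 1 lower) 0.189 to 0.240% in injury and 0.0855 to 0.138% in sham libraries. Apart from muscle, treated beside the members that fell, their part in the results was not tested. None of these markers had a value of 0. Among the macrophage markers, Lyz2 had the highest values, averaging 20070 in injury and 6906 in sham libraries, and weighed most in their share. Cd163 was the 1 called lower, 3.28-fold. With the mean level of the muscle genes as a covariate, 4 of the 10 macrophage markers were called higher and 1 lower. In a bulk sample, fewer cells of a type and less RNA per cell cannot be told apart.

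Most of the transport genes were higher in injured tendon. Of the 44, 36 (81.8%) rose, 3 (6.82%) fell and 5 did not pass. The test was limma's on log2(value + 1), its p-values were adjusted by Benjamini-Hochberg over every gene tested, and the threshold was 0.05. Of all 15747 genes tested, 59.7% were called, 28.5% higher and 31.3% lower. Among the 7992 genes with a mean at least as high as that of the lowest member, Klhl12, 34.8% were called higher and 33.2% lower. The median log2 fold change was 0.48 over the members and -0.02 over all genes.

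The changes were small in size. Only Kdelr3, Kdelr2, Sec24d and Arf4 were at least 2-fold higher in the fit, 4 of 44 against 8.01% of all genes, a share close to the background, and Sar1b alone was at least 2-fold lower, against 13.4% of all genes. The members varied little among replicates, with a median coefficient of variation of 4.70% in injury and 6.05% in sham libraries. Over all genes it was 11.3% in injury and 12.7% in sham libraries. All genes include many at lower counts than any member, and genes of like level were not compared, so this may reflect expression level alone. Every injury library lay above every sham library for 37 members and below for 3, while the groups were apart in 55.6% of all genes, above in 26.7% and below in 28.9%. Together the 44 genes held 0.655 ± 0.0108% of all counts in injured tendon and 0.476 ± 0.0242% in sham tendon (SD, n = 4 each).

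**Figure D1:**
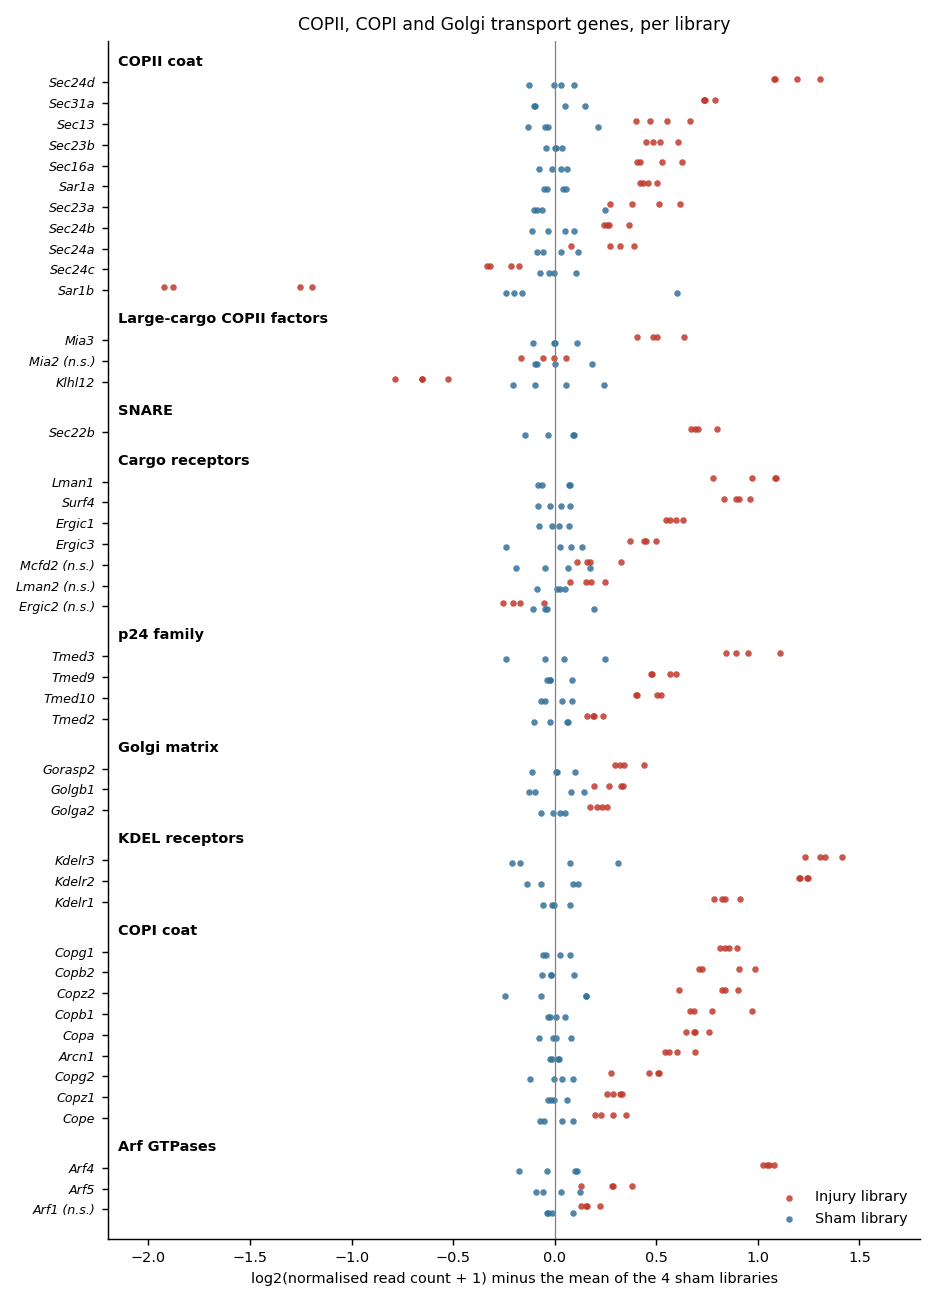
Each member's log2(normalised read count + 1) in every library, minus the mean of its 4 sham libraries (horizontal axis), grouped by role and sorted by fold change within each role; red points are injury libraries and blue points sham libraries, and n.s. marks the 5 members that did not pass. Red points lie to the right of blue for most genes, with Sar1b, Klhl12 and Sec24c to the left.

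The KDEL receptors showed the largest shift of any class, with a median log2 fold change of 1.22 over its 3 genes, all of them higher. These receptors sit in the Golgi, bind escaped ER chaperones by their C-terminal retrieval signal and send them back in COPI vesicles. Kdelr3 (ENSMUSG00000010830.8, chromosome 15, 79516411 to 79527739, forward strand, in GENCODE M21 on GRCm38) had 1918, 2068, 1823 and 1955 normalised read counts in the 4 injury libraries, against 670, 962, 818 and 689 in the 4 sham libraries. The lowest injury value was well above the highest sham value, and the log2 fold change of 1.32 (SE 0.11, adjusted p = 2.4e-05) was the highest of all 44 members in the fit on group alone. Kdelr2 (ENSMUSG00000079111.3, chromosome 5, 143403838 to 143421901, forward strand) had 2864, 2939, 2931 and 2859 in injury and 1182, 1342, 1320 and 1129 in sham libraries. The injury libraries were nearly equal, and the log2 fold change was 1.22 (SE 0.07, adjusted p = 3.33e-06). Kdelr1 had 2563, 2583, 2493 and 2721 in injury and 1390, 1521, 1432 and 1443 in sham libraries. It rose least of the 3, with a log2 fold change of 0.84 (SE 0.06, adjusted p = 9.06e-06), again with no overlap.

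All 9 genes of the COPI coat rose, with a median log2 fold change of 0.70, and in each of them every injury library lay above every sham library. Coatomer, the complex they encode, is recruited to Golgi membranes as a whole. Copg1, encoding a gamma subunit, had 3263, 3359, 3322 and 3462 in injury and 1783, 1889, 1957 and 1799 in sham libraries. The rise was 1.81-fold (log2 fold change 0.85, SE 0.06, adjusted p = 9.08e-06). Copb2, encoding the beta-prime subunit that contacts cargo signals, had 2456, 2485, 2821 and 2980 in injury and 1484, 1484, 1439 and 1605 in sham libraries. Its injury replicates 3 and 4 were higher than replicates 1 and 2, and the rise was 1.78-fold (adjusted p = 4.24e-05). Copz2, encoding the second zeta subunit, had 1689, 1786, 1710 and 1460 in injury and 912, 1064, 1064 and 807 in sham libraries, a 1.73-fold rise (adjusted p = 0.000222).

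The other large subunits moved by similar amounts. Copb1 averaged 1990 ± 200 in injury and 1160 ± 29.6 in sham tendon, Copa, encoding the alpha subunit, 4726 ± 159 in injury and 2918 ± 134 in sham tendon, and Arcn1, encoding the delta subunit, 3648 ± 168 in injury and 2407 ± 35.3 in sham tendon (mean ± SD, n = 4 each). The smallest rises of the coat were those of Cope, 1.20-fold, from the epsilon subunit gene, and of Copz1, 1.23-fold (adjusted p = 0.00622 and 0.00124), and Cope lost its call when every library was scaled to the same total (adjusted p = 0.0653). Copz1 had 1274, 1214, 1239 and 1269 in injury and 1056, 1001, 1010 and 990 in sham libraries. Copg2, encoding the second gamma subunit, had 713, 740, 737 and 628 in injury and 550, 476, 531 and 516 in sham libraries (1.36-fold higher, adjusted p = 0.00103). Its value is uncertain, because 912 bases of its exons lie opposite exons of Mest, which had 675, 789, 718 and 452 in injury and 245, 205, 225 and 175 in sham libraries, and the sources used here do not say whether counting used strand. Exons of 14 of the 44 members overlap those of another tested gene, Copa, Copg1, Arf4, Sec24c and Surf4 among them. With all overlapping genes left out, 25 of the 30 remaining members were higher and 2 lower. Of all 10708 genes left in that fit, 3166 were higher and 3331 lower.

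Arf GTPases recruit COPI to membranes, and Arf4 and Arf5 rose while Arf1 did not pass. Arf4 (ENSMUSG00000021877.12, chromosome 14, 26638074 to 26665084, forward strand) had 4706, 4607, 4673 and 4791 in injury and 2207, 2442, 2428 and 2006 in sham libraries, a 2.07-fold rise (log2 fold change 1.05, SE 0.08, adjusted p = 1.15e-05). The injury libraries were nearly equal. Arf5 had 1338, 1433, 1340 and 1201 in injury and 1056, 1122, 1197 and 1030 in sham libraries, 1.20-fold higher (adjusted p = 0.0135), a call lost with equal library totals (adjusted p = 0.181). Arf1, the classical COPI GTPase, had 4346, 4429, 4437 and 4644 in injury and 3879, 3865, 3943 and 4225 in sham libraries. Its groups did not overlap, but the difference (log2 fold change 0.17, SE 0.07) did not pass (adjusted p = 0.0554, range over the alternatives 0.0166 to 0.401).

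In the COPII coat, 9 of 11 genes rose and 2 fell. Sec24d (ENSMUSG00000039234.11, chromosome 3, 123267455 to 123365641, forward strand), one of 4 cargo-binding Sec24 genes, had 2926, 2911, 3153 and 3405 in injury and 1376, 1470, 1410 and 1264 in sham libraries. It rose 2.24-fold (log2 fold change 1.17, SE 0.08, adjusted p = 6.12e-06), the only Sec24 gene to exceed 2-fold. Sec31a, of the outer cage, had 4759, 4771, 4749 and 4934 in injury and 2664, 2954, 3163 and 2673 in sham libraries, 1.68-fold higher (adjusted p = 5.36e-05). Its cage partner Sec13, which also serves in the nuclear pore, had 1242, 1299, 1377 and 1492 in injury and 909, 858, 917 and 1090 in sham libraries, 1.44-fold higher (adjusted p = 0.001). Neither cage gene had overlapping groups. Sar1a, encoding one of a pair of Sar1 GTPases, had 4472, 4522, 4598 and 4739 in injury and 3254, 3444, 3222 and 3475 in sham libraries, 1.37-fold higher (adjusted p = 0.000323). Its groups were also apart.

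The inner-coat genes Sec23a and Sec23b and the exit-site scaffold gene Sec16a rose by 1.36-fold, 1.43-fold and 1.41-fold, with adjusted p of 0.0051, 0.000134 and 0.000317. Sec23a averaged 1820 ± 190 in injury and 1338 ± 164 in sham tendon, and Sec23b 515 ± 24.6 in injury and 361 ± 8.22 in sham tendon (SD, n = 4 each). Sec24a and Sec24b rose least, by 1.20-fold and 1.22-fold (adjusted p = 0.0228 and 0.00501), and neither was called with equal library totals (adjusted p = 0.135 and 0.116). The call of Sec24a did not hold without any 1 of injury replicates 3 and 4 and sham replicates 1 and 2 (adjusted p of 0.0536 to 0.0669), and its groups overlapped, with 448 to 557 in injury and 400 to 459 in sham libraries.

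Sar1b and Sec24c were the COPII coat genes that fell. Sar1b (ENSMUSG00000020386.5, chromosome 11, 51763687 to 51791925, forward strand), the Sar1 form best known for the secretion of large lipoproteins, had 396, 409, 631 and 657 in injury and 1310, 1346, 1277 and 2291 in sham libraries. It was 2.96-fold lower (log2 fold change -1.56, SE 0.23, adjusted p = 0.000411), the largest change of any member in the fit on group alone. With the mean level of 37 muscle genes as a covariate its log2 fold change was -0.53 (adjusted p = 0.173). Sec24c had 1223, 1234, 1325 and 1366 in injury and 1537, 1464, 1511 and 1659 in sham libraries, 1.20-fold lower (adjusted p = 0.00822). Sar1b and Sec24a, which moved in opposite directions, are head-to-head neighbours. In GENCODE M21 their starts are separated by 52 bases, shown here because both genes are read outward from them (chr11:51763635-51763686, GRCm38, strand of Sar1b, sequence from RefSeq, no base marked):
Sec24a and Sar1b gap: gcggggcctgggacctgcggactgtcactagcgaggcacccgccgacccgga

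Among the factors for large cargo, Mia3, which encodes TANGO1, the ER exit-site receptor for procollagen, had 5199, 5569, 5492 and 6102 in injury and 3938, 3922, 3647 and 4240 in sham libraries. It was 1.42-fold higher (adjusted p = 0.000621). Its partner Mia2, which encodes the related cTAGE5 protein, had 820, 918, 883 and 957 in injury and 920, 859, 866 and 1046 in sham libraries, values that overlapped (log2 fold change -0.04, SE 0.08, adjusted p = 0.679). Klhl12 (ENSMUSG00000026455.14, chromosome 1, 134455531 to 134491018, forward strand) encodes the adaptor by which the CUL3 ubiquitin ligase modifies Sec31. It had 196, 215, 215 and 235 in injury and 317, 353, 294 and 402 in sham libraries, 1.58-fold lower (log2 fold change -0.66, SE 0.11, adjusted p = 0.000744). Cul3 itself, not a member, averaged 1212 ± 137 in injury and 2114 ± 406 in sham tendon (log2 fold change -0.79, adjusted p = 0.000794). It was highest in sham replicate 4, the library with the most muscle gene counts, at 2719, and with the mean level of muscle genes as a covariate its log2 fold change was -0.30 (adjusted p = 0.284). Sec22b, encoding a SNARE that fuses carriers between ER and Golgi, had 1302, 1403, 1284 and 1316 in injury and 727, 857, 861 and 787 in sham libraries, 1.64-fold higher (adjusted p = 5.13e-05).

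**Figure D2:**
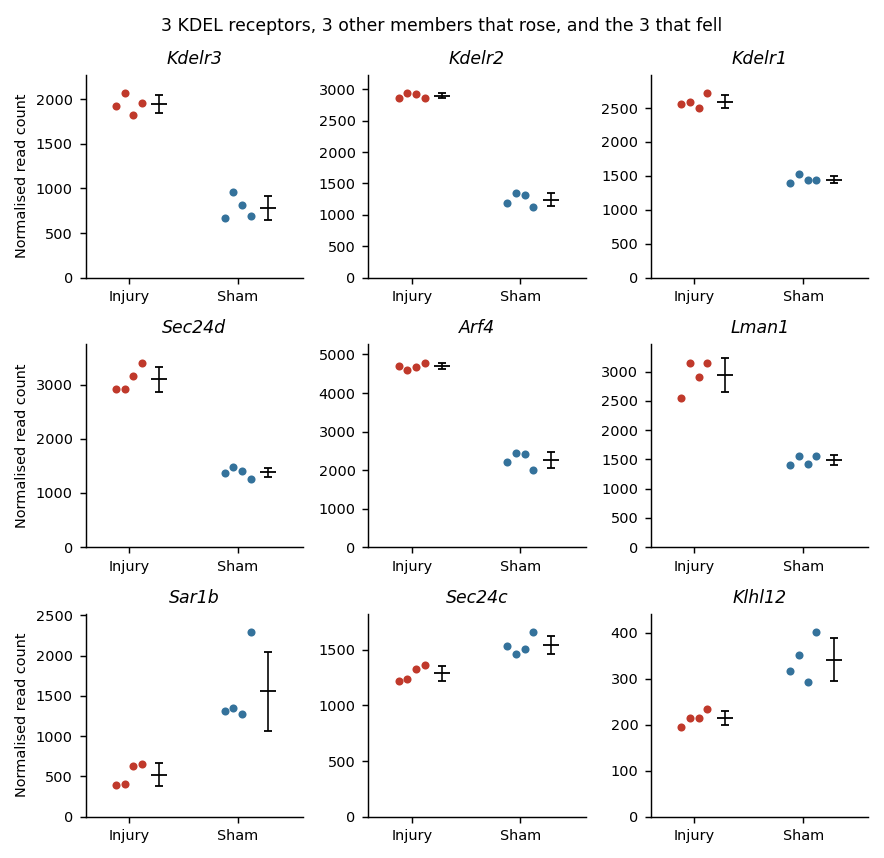
Normalised read counts (vertical axes, from 0) of 9 members in injury libraries (red) and sham libraries (blue), 4 each, with the mean and SD as black bars. The 6 genes in the upper rows are higher in all injury libraries, with Kdelr3 at 1823 to 2068 against 670 to 962, and Sar1b, Sec24c and Klhl12 are lower in all of them.

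Cargo receptors divided into genes that rose and genes that did not pass, with 4 of 7 higher and none lower. Lman1, encoding the lectin ERGIC-53, had 2551, 3157, 2913 and 3154 in injury and 1401, 1565, 1424 and 1560 in sham libraries, 1.97-fold higher (adjusted p = 2.52e-05). Surf4, whose product exports many soluble secreted proteins, had 5105, 5380, 5315 and 5588 in injury and 2703, 2931, 2820 and 3020 in sham libraries, 1.86-fold higher (adjusted p = 1.28e-05). Both genes had injury values far above their sham values. Ergic1, from a family of cycling membrane proteins, had 1736, 1713, 1770 and 1816 in injury and 1108, 1160, 1230 and 1188 in sham libraries (1.50-fold higher, adjusted p = 4.91e-05), and Ergic3 was 1.36-fold higher (adjusted p = 0.00213).

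The lectin gene Lman2 had 2062, 2098, 1954 and 2205 in injury and 1870, 1920, 1746 and 1887 in sham libraries (log2 fold change 0.16, SE 0.06, adjusted p = 0.0522, range over the alternatives 0.0164 to 0.39). Mcfd2, encoding the soluble partner of ERGIC-53, had 984, 944, 975 and 1095 in injury and 986, 845, 765 and 914 in sham libraries (log2 fold change 0.19, SE 0.09, adjusted p = 0.0918). The groups overlapped for Mcfd2 but not for Lman2. Ergic2 had 654, 753, 676 and 693 in injury and 756, 760, 725 and 891 in sham libraries (log2 fold change -0.17, SE 0.08, adjusted p = 0.0979), and was called lower with equal library totals (adjusted p = 0.00963).

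The p24 proteins, which help to sort cargo into both kinds of coat, were higher in 4 of 4 genes. Tmed3 had 2763, 3076, 2556 and 2646 in injury and 1378, 1692, 1473 and 1207 in sham libraries, 1.93-fold higher (adjusted p = 9.35e-05). Tmed9 had 2429, 2634, 2422 and 2587 in injury and 1851, 1717, 1713 and 1699 in sham libraries, and Tmed10 had 3533, 3858, 3555 and 3795 in injury and 2842, 2594, 2745 and 2555 in sham libraries, rises of 1.44-fold and 1.37-fold (adjusted p = 0.000116 and 0.000414). The groups were apart for all 3 genes. Tmed2 differed least, with 973, 994, 996 and 1027 in injury and 909, 811, 857 and 911 in sham libraries (1.14-fold higher, adjusted p = 0.021), and its call did not hold without injury replicate 4 (adjusted p = 0.0515) or without sham replicate 2 (adjusted p = 0.0635), nor with equal library totals (adjusted p = 0.236).

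The 3 Golgi matrix genes rose by small amounts. Gorasp2, encoding the stacking protein GRASP55, had 2134, 2202, 2168 and 2355 in injury and 1604, 1747, 1743 and 1861 in sham libraries, 1.27-fold higher (adjusted p = 0.00182). Golgb1, encoding the golgin giantin, had 2171, 2258, 2278 and 2063 in injury and 1686, 1904, 1989 and 1653 in sham libraries, 1.22-fold higher (adjusted p = 0.0125). Golga2, encoding the tethering golgin GM130, had 1843, 1916, 1952 and 1883 in injury and 1560, 1691, 1660 and 1623 in sham libraries, 1.16-fold higher (adjusted p = 0.00923). Golgb1 and Golga2 both lost their call with equal library totals (adjusted p = 0.158 and 0.176).

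Levels per kilobase of exon gave an order among the members. The length was that of all annotated exons of a gene together, so the order depends on the annotation as well as on the counts. Arf1 was highest in both groups, at 2137 normalised read counts per kilobase in injury and 1904 in sham tendon, and Klhl12 lowest, at 18.9 in injury and 30.0 in sham tendon. Behind Arf1 in injured tendon came Surf4 at 1630, Kdelr2 at 1585, Kdelr1 at 1382 and Kdelr3 at 1376 counts per kilobase, the last 2 too close to be put in order. In sham tendon, rank 2 belonged to Sar1b at 1240 counts per kilobase, which was at rank 22 in injured tendon, at 417. Sec24d stood at rank 18 in injured tendon (490 counts per kilobase) and at rank 29 in sham tendon (218 counts per kilobase).

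Related members did not all shift together. The log2 ratio of 2 related genes was taken in each library, where scaling between libraries cannot change it, and compared between the groups by an exact two-sided permutation test in 14 pairs. Groups of 4 allow no p below 0.0286, and 10 pairs reached it, each with an adjusted p of 0.04 over the 14 pairs. Sar1b amounted to 0.114 ± 0.0280 of Sar1a in injured tendon and 0.462 ± 0.131 of it in sham tendon (SD, n = 4 each), a difference in log2 ratio of -2.02. It was 0.0886, 0.0905, 0.137 and 0.139 of Sar1a in injury replicates 1 to 4. In sham replicate 4, the library with the most muscle gene counts, it was 0.659, against 0.391 to 0.403 in the other sham libraries. A ratio within a library can still follow its mix of tissues, and for these pairs that was not tested. Sec24d was 2.41 ± 0.0594 times Sec24c by count in injured tendon and 0.899 ± 0.102 times Sec24c in sham tendon, a difference of 1.43. Arf4 was 1.05 ± 0.0224 times Arf1 in injury and 0.573 ± 0.0706 times Arf1 in sham tendon, a difference of 0.89. Lman1 over Lman2 differed by 0.82, Arf4 over Arf5 by 0.78, Mia3 over Mia2 by 0.55, Copz2 over Copz1 by 0.49, Kdelr3 over Kdelr1 by 0.48, Copg1 over Copg2 by 0.41 and Kdelr2 over Kdelr1 by 0.38.

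The ratios of the other 4 pairs overlapped between the groups. Sec23a over Sec23b differed by -0.07 in log2 ratio (exact permutation p = 0.6286), Sec24a over Sec24b by -0.02 (p = 0.8286), Kdelr3 over Kdelr2 by 0.10 (p = 0.314) and Arf5 over Arf1 by 0.10 (p = 0.314), with 0.367 the smallest adjusted p of the 4 over the 14 pairs. The Sec24 genes thus shifted unequally, with Sec24d up against Sec24c but no shift detected between Sec24a and Sec24b. Ratios of these normalised counts also depend on gene length, so the level of a ratio says nothing about which gene has more transcripts. Only its difference between the groups is compared.

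**Figure D3:**
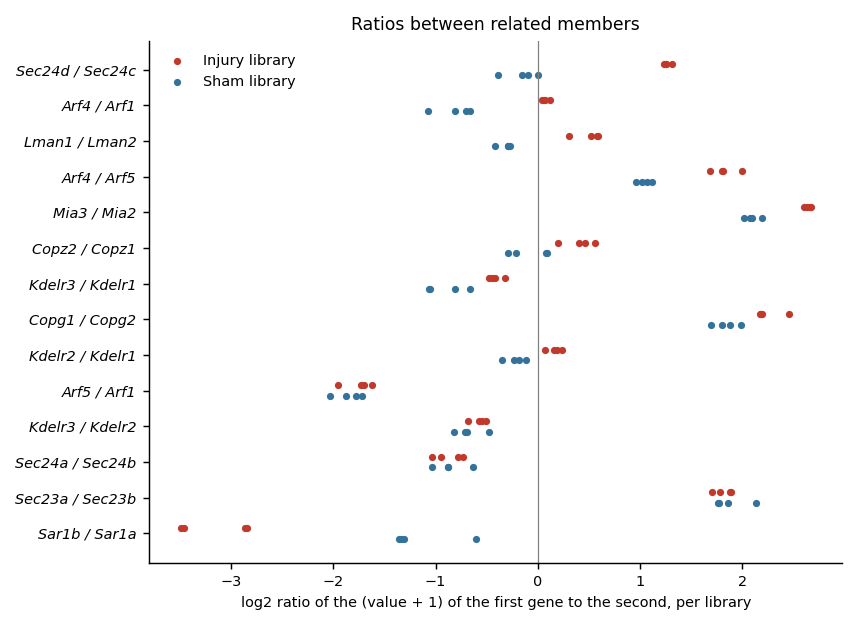
The log2 ratio of normalised read count + 1 between 2 related members (horizontal axis) in each injury library (red) and sham library (blue) for 14 pairs, sorted by the difference between the groups. Injury and sham points are apart in 10 pairs, from Sec24d over Sec24c at the top to Sar1b over Sar1a at the bottom.

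In counts as deposited, the 3 members that fell were each highest in the library with the most muscle gene counts. Sar1b was highest in sham replicate 4, where muscle genes held 13.7% of counts, and lowest in injury replicates 1 and 2, where they held 0.448 and 0.8286%. Klhl12 and Sec24c were likewise highest in sham replicate 4 and lowest in injury replicate 1. As the groups of these 3 members did not overlap, their highest value had to be in a sham library and their lowest in an injury library. Some members that rose, Sec23a, Sec13 and Mia3 among them, also had their highest sham value in sham replicate 4. Others, Kdelr2 and Arf4 among them, had their lowest sham value there. Sham replicate 4 also had the largest total of the sham libraries, 15545903, and injury replicate 1 the smallest of the injury libraries, 14568669. With counts scaled to equal totals, Sec24c was highest in sham replicate 3 and lowest in injury replicate 2. Mia3 then had its highest sham value in sham replicate 1. In the fit with the muscle covariate, the mean log2 value of the 37 muscle genes, Klhl12 had a log2 fold change of -0.33 (adjusted p = 0.238) and Sec24c of -0.06 (adjusted p = 0.741), and no member, Sar1b included, was called lower. In that fit 26 members were called higher, against 13.5% of all genes, and 10% of all genes were called lower. Kdelr2 (log2 fold change 1.16, adjusted p = 0.000735), Sec24d (1.31, adjusted p = 0.000443), Copb2 (1.15, adjusted p = 0.000224) and Surf4 (1.03, adjusted p = 0.000694) rose in it. Sec23a had 0.87, against 0.45 without the covariate, Sec13 0.84, against 0.52, and Cope 0.41, against 0.27. Another 10 members were no longer called higher, though the log2 fold changes of all 10 stayed above 0. Those of Sec24a (0.44, against 0.26 without the covariate), Tmed2 (0.28, against 0.20) and Golga2 (0.25, against 0.22) were larger in that fit, and that of Copz1 was 0.29, against 0.30. Those of Copz2 (0.51, against 0.79), Copg2 (0.31, against 0.44), Ergic3 (0.25, against 0.44), Golgb1 (0.17, against 0.28), Sec24b (0.14, against 0.28) and Arf5 (0.08, against 0.27) were smaller. The muscle covariate was 10.21 to 13.01 in injury and 14.23 to 15.24 in sham libraries, without overlap, so what belongs to muscle and what belongs to injury cannot be told apart fully by such a fit.

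**Figure D4:**
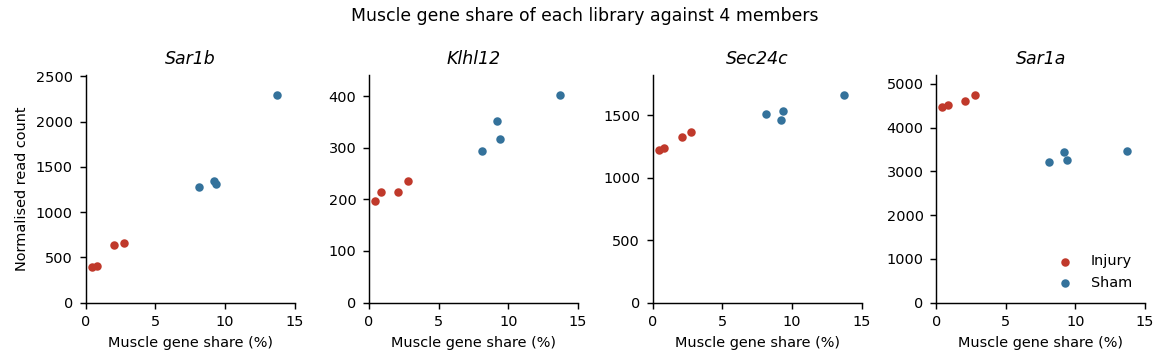
Share of each library's counts held by 37 skeletal muscle genes (horizontal axes, %) against the normalised read count (vertical axes, from 0) of the 3 members that fell, Sar1b, Klhl12 and Sec24c, and of Sar1a, in injury libraries (red) and sham libraries (blue). Sar1b runs from 396 to 657 in injury libraries at 0.448 to 2.76% muscle and reaches 2291 at 13.7% in sham replicate 4.

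Promoters were searched for 4 motifs of the ER stress response and its relatives, one of them TGACGTGG (reverse complement CCACGTCA), a core of the unfolded protein response element bound by ATF6 and XBP1. Promoters were taken as the 250 bases before the RefSeq start, on GRCm38, and 39 of the 44 members had an entry. TGACGTGG was found in 4 of these 39 (10.3%), Sec24d, Kdelr3, Copb1 and Arf1, and in 0.921% of the 11288 tested genes with an entry. The shorter TGACGT, which the longer motif contains, was in 13 of 39 members (33.3%) and 10.9% of tested genes. The longer ER stress elements ERSE and ERSE-II were in none of the 39, and in 0.133% and 0.062% of tested genes. Both strands were searched, and a match is a description of letters, not evidence of binding. Of the 4 genes with the motif, Sec24d, Kdelr3 and Copb1 rose and Arf1 did not pass. Their promoters are printed with the motif in capitals, on the strand of the gene.
Sec24d chr3:123267246-123267495, forward strand: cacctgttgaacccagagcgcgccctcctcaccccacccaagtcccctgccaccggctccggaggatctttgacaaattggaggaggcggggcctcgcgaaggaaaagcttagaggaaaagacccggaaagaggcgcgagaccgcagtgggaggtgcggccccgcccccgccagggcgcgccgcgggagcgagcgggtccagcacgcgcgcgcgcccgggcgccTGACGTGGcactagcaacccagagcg
Kdelr3 chr15:79516158-79516407, forward strand: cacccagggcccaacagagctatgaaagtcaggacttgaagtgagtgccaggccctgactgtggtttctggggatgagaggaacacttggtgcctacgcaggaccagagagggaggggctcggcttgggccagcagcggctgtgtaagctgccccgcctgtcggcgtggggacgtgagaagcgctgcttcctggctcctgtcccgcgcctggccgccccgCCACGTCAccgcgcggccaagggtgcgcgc
Copb1 chr7:114254681-114254930, reverse strand: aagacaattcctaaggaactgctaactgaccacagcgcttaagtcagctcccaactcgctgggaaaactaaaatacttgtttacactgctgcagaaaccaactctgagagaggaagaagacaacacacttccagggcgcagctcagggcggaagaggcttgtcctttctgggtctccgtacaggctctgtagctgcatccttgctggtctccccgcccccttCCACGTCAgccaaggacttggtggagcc
Arf1 chr11:59228163-59228412, reverse strand: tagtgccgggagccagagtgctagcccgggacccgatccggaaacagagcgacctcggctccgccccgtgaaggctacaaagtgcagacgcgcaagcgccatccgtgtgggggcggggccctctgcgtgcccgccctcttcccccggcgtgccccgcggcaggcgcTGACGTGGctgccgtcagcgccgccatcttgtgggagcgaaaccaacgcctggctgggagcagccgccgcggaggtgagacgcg
The motif ends 19 bases before the RefSeq start in Sec24d, 23 in Kdelr3, 21 in Copb1 and 77 in Arf1. GENCODE M21 places the start of Sec24d 41, of Copb1 31 and of Arf1 108 bases further upstream, so that in these 3 genes the motif lies downstream of that start.

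Transcription factor genes known to act on this pathway moved as well. Of 10 listed, 6 were higher and 1 lower, against 28.5% and 31.3% of all genes. With the muscle covariate 4 were higher and 1 lower, against 13.5% and 10% of all genes. The calls lost in that fit, named after their values were seen, were those of Xbp1 and Atf6b (adjusted p = 0.237 and 0.389). Creb3l2, whose product drives Sec23a in cartilage, averaged 2458 ± 220 in injury and 1138 ± 66.4 in sham tendon, and Creb3l1, a regulator of collagen production in bone, 3606 ± 153 in injury and 1724 ± 314 in sham tendon (SD, n = 4 each). Their adjusted p was 9.38e-06 and 9.26e-05. Creb3 was 1.53-fold higher (adjusted p = 0.00042). Ddit3, a gene of the ER stress response that encodes CHOP, was 1.36-fold lower (log2 fold change -0.44, adjusted p = 0.0127, and -0.80 with the muscle covariate, adjusted p = 0.0266). In the fit on group alone, the 3 that did not pass were Atf4, Creb3l3 and Creb3l4. Fibrillar collagen genes, whose large products leave the ER by this route, were higher in 9 of 11 genes and lower in none, and held 16.4 ± 1.1% of all counts in injured tendon and 5.42 ± 1.8% in sham tendon (SD, n = 4 each). Col1a1 and Col1a2 made up most of that share in both groups. Both are also tendon fibroblast markers and made up most of the share of those, so the 2 shares are not separate results. Col11a1 was 9.54-fold and Col5a1 6.25-fold higher (adjusted p = 1.48e-06 and 1.74e-06). The 2 that did not pass, named after their values were seen, were the collagen I genes. Col1a1 was 3.42-fold higher (log2 fold change 1.77, SE 0.70, adjusted p = 0.0524) and Col1a2 2.81-fold higher (1.49, SE 0.79, adjusted p = 0.133). In both, every injury library lay above every sham library, so the missing call does not show that they were unchanged. Their fitted SEs were the largest of the 11. The prior variance of the fit depended on mean expression, and its part in these SEs was not tested.

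Other genes of the same transport steps moved in both directions. Of 80 measured genes on 6 further lists, 34 were higher, 21 lower and 25 did not pass, and the median log2 fold change was 0.14. With the muscle covariate, 24 of the 80 were called higher and 5 lower. The other COPII genes divided evenly, with 4 of 8 higher and 4 lower: Sec31b, a second outer-cage gene, averaged 98.2 ± 27.2 in injury and 420 ± 106 in sham tendon (4.28-fold lower, adjusted p = 5.89e-05), Preb, encoding the Sar1 activator Sec12, was 1.33-fold lower, and Pdcd6, encoding a calcium-binding partner of Sec31, was 1.32-fold higher, a call lost with the muscle covariate (adjusted p = 0.282). Among 14 further COPI and Arf genes, 7 were higher and 3 lower, with Arf2 1.67-fold and Arfgap3 1.55-fold higher, and Arfgap2, another gene for an Arf inactivator, 1.798-fold lower (log2 fold change -0.85, and -0.48 with the muscle covariate, adjusted p = 0.0384). SNAREs and tethers had 12 of 27 higher and 7 lower, Ykt6 at 1.52-fold higher and the TRAPP subunit gene Trappc5 at 1.58-fold lower. The other p24 genes were even, 2 of 5 higher and 2 lower, Tmed7 at 1.49-fold higher and Tmed4 at 1.20-fold lower, the call of Tmed4 being lost with the muscle covariate (adjusted p = 0.668).

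Further Golgi genes had 5 of 18 higher and 2 lower. Golga4, encoding a golgin of the trans-Golgi, averaged 2258 ± 630 in injury and 6548 ± 1600 in sham tendon (2.93-fold lower, adjusted p = 0.000303). It too was highest in sham replicate 4, at 8945, and with the muscle covariate its log2 fold change was -0.49 (adjusted p = 0.0859), against -1.55 without it. Sec31b stayed lower in that fit (log2 fold change -1.08, adjusted p = 0.0095). Other cargo receptors had 4 of 8 higher and 3 lower, with Yipf5 1.94-fold higher and Bcap29 2.28-fold lower (log2 fold change -1.19, and with the muscle covariate -0.68, adjusted p = 0.0542). For comparison, clathrin and its adaptors, which work at the trans-Golgi and plasma membrane, had 12 of 18 higher and 2 lower, a median log2 fold change of 0.30, with the heavy chain gene Cltc 1.46-fold higher and Ap3s2 1.25-fold lower, the call of Ap3s2 being lost with the muscle covariate (adjusted p = 0.293). No test was made of whether the 44 genes differ from these lists.

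**Figure D5:**
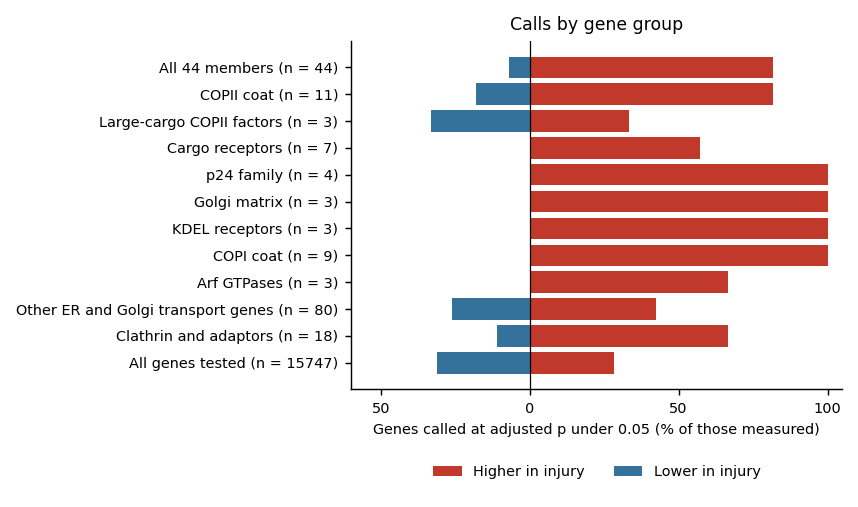
Percentage of measured genes called higher (red, right) or lower (blue, left) in injured tendon at an adjusted p under 0.05, for all 44 members, their roles, 80 other ER and Golgi transport genes, 18 clathrin and adaptor genes and all 15747 genes tested; n is the number measured, and the single SNARE, higher, is not drawn. Members reach 81.8% higher and 6.82% lower, against 28.5% and 31.3% of all genes.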

How the data were processed

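RNA sequencing tables of 8 libraries were analysed, 4 from injured and 4 from sham tendon, grouped by the sample titles. The deposited values are a score, the authors' read count per gene after normalization (per the file headers, whose value columns are marked norm), in whole numbers. The submitters' processing notes name the tools edgeR 3.12, StringTie 1.3.5, STAR 2.7.6a and Trimmomatic 0.39 and the builds mm9 and mm10, without their roles. The sources used here give neither the normalization method nor the strandedness. The tables list 55450 genes, 39703 of them without values. Reads sequenced per library are unknown, since normalised counts do not keep them.

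The fit used limma 3.58.1 (R 4.3.3) on log2(value + 1), for genes at 1 or above in 4 or more libraries, with a mean-dependent prior variance, group as the only term, two-sided tests, Benjamini-Hochberg adjustment over all 15747 genes and a threshold of 0.05. Fold changes are on that scale, which understates those of low genes. The fit was also run on simulated data with 200 genes changed, far fewer than were called here. No muscle difference was simulated, so that run is no support for the calls. Paralog ratios were tested with SciPy 1.17.1 and drawn with matplotlib 3.10.9 (Python 3.11.15). Coordinates, exon lengths and overlaps are from GENCODE M21 (99.9% of gene IDs matched), promoters from RefSeq. Replicates were checked for duplicates: 1.11 to 2.25% of genes had equal values in any pair of a group. Members, gene lists and alternatives were chosen with earlier results of these data known. All 44 members are reported, with every library's value for the largest changes and the most abundant gene of each role, for every member of roles with 4 or fewer genes, for pairs whose ratio differed and for members that did not pass. From other lists, up to 3 called genes with the smallest adjusted p and the first in the other direction were eligible. Alternatives were 3 other scalings, a pseudocount of 0.1, other filters, a single prior variance, the replicate number as a block, a muscle covariate, no overlapping exons and libraries left out.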

Additional observations from a re-analysis of the deposited data

Results flagged for a closer look

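Of 88 groups of 4 libraries (the injury and the sham values of each member), 4 had 1 library far from the other 3, with a gap to the nearest that passed Dixon's 95% critical value. About 1 in 20 such groups would be picked out by chance. Sar1b was at 2291 in sham replicate 4, against 1277 to 1346 in the other sham libraries, and Sec23a was at 1583 in the same library, against 1242 to 1275. Sec31a was at 4934 in injury replicate 4, against 4749 to 4771 in the other injury libraries. Tmed9 was at 1851 in sham replicate 1, against 1699 to 1717. Sham replicate 4 also had the highest share of muscle genes, 13.7% of its counts. Without that library, Sar1b had a log2 fold change of -1.36 and Sec23a of 0.53, both still called.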

How the results depend on the processing

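The number of members called higher was 36 and lay between 34 and 37 in the fits without 1 library, and the number called lower was 3 in each of them. Over all genes, 4072 to 4307 were higher and 4531 to 4788 lower in those fits, against 4481 and 4921. The median log2 fold change of the members, 0.48, was 0.47 to 0.51 without 1 library, 0.52 with upper quartile factors, 0.38 with equal library totals and 0.55 with the muscle covariate. Equal totals moved the median of all genes to -0.11 and left 29 members higher and 4 lower. Over all genes, 3428 were higher and 5553 lower with equal totals. Among the members, the calls of Arf5, Cope, Golga2, Golgb1, Sec24a, Sec24b and Tmed2 were lost and Ergic2 was called lower. With the muscle covariate 0 members were lower and, over all genes, 2130 were higher and 1579 lower. That fit has fewer residual degrees of freedom and a covariate that separates the groups. Mia2, not called in any fit, changed sign with the muscle covariate (0.20), with upper quartile factors (0.0053) and without sham replicate 4, its range without 1 library being -0.076 to 0.019. Of the 39 members called, 25 kept their call and direction in every alternative that included them. Labels number the replicates alike in both groups. Same-numbered libraries correlated at 0.249, 0.284, -0.00957 and 0.493 in their deviations from the group means, and differently numbered ones at -0.434 to 0.256. The highest 2 values, 0.284 and 0.493, were thus of same-numbered libraries, but pair 3 was at -0.00957. Injury replicate 1 correlated best with sham replicate 3 (0.256), and injury replicate 3 with sham replicate 4 (0.2). The replicate numbers were not used as pairs. With the replicate block 37 members were higher and 3 lower, Lman2 being added (adjusted p = 0.0477). Over all genes, 4635 were higher and 5107 lower with that block. The pseudocount of 0.1 left 10 paralog ratios past the threshold. With fewer libraries the exact test cannot pass it, and no ratio difference moved by more than the spread between replicates. Rounded normalised values limit precision for low genes more than for these members, the lowest of which averaged 278.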
